A study of Mus musculus with 6 samples.

Results

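The typical dual-specificity MAP kinase phosphatases were examined in CD11b+ cells purified from subcutaneous tumors grown in MCT2 CO and in MCT2 KO mice. The 9 members, *Dusp1*, *Dusp2*, *Dusp4*, *Dusp5*, *Dusp6*, *Dusp7*, *Dusp8*, *Dusp10* and *Dusp16*, were picked by gene symbol from the 25701 genes of the deposited count table, and all 9 were found there. They were picked with the values of the MCT2 KO and MCT2 CO samples already known, so the differences between these groups are given below as descriptions and support no statement about the family. Both groups were male mice on a C57BL/6 background, 8 weeks old when treatment began, that carried floxed MCT2 alleles and a tamoxifen-inducible Cre transgene (MCT2 loxP/loxP; mCre-Tg). The mice behind the 3 MCT2 KO samples received a course of daily tamoxifen injections and those behind the 3 MCT2 CO samples vehicle. TC1 cells, a mouse lung epithelial tumor line, were placed under the skin of the flank 2 days after the course. Tumors were taken after 24 days, digested, and CD11b+ cells were selected with magnetic beads. The deletion was systemic and not limited to one cell type, and the injected tumor cells were not its target. No group received tamoxifen without the floxed alleles or without Cre, so effects of the drug, of Cre and of the deletion cannot be told apart. The sample records give lung as the tissue and purified macrophages as the cell type. The labels do not state that each sample came from a separate animal, so the p values below measure the spread between these samples, part of which may be technical.

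MAP kinase phosphatases switch off MAP kinases by removing phosphate from both the threonine and the tyrosine of the activation loop. Each has an amino-terminal domain that docks a MAP kinase and a carboxy-terminal catalytic domain built around a cysteine. Several are transcribed within minutes of MAP kinase activation, which closes a negative feedback loop, and in macrophages DUSP1 limits cytokine output after Toll-like receptor stimulation by acting on p38 and JNK. The family is usually divided into nuclear inducible enzymes (DUSP1, DUSP2, DUSP4, DUSP5), cytoplasmic enzymes that prefer ERK (DUSP6, DUSP7, DUSP9) and enzymes that prefer JNK and p38 (DUSP8, DUSP10, DUSP16).

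The 9 catalytic sites are shown because they are the feature the members share, and because near-identical copies would make it uncertain to which gene a read belongs. Each line gives the 24 coding bases (8 codons, 5′ to 3′, from GENCODE M21 transcripts on GRCm38) that run from the histidine codon before the catalytic cysteine to the invariant arginine codon, with the cysteine codon in capitals.
Dusp1: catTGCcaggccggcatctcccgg
Dusp2: cacTGCcaagctggcatctctcgc
Dusp4: cacTGCcaggccggcatctcccga
Dusp5: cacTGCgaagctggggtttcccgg
Dusp6: catTGCttggcaggtatcagccgc
Dusp7: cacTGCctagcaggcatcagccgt
Dusp8: cacTGTctggctggcatctctcgc
Dusp10: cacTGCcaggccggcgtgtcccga
Dusp16: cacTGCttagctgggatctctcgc
The window was found once in each coding sequence and lay within a single exon in all 9. It fell in the last exon of *Dusp1*, *Dusp2*, *Dusp4*, *Dusp5*, *Dusp6*, *Dusp7* and *Dusp10*, and in exon 6 of 7 in both *Dusp8* (chr7:142083333-142083356, minus strand) and *Dusp16* (chr6:134720559-134720582, minus strand). Across the 9 windows 11 of the 24 bases were identical, and no pair of members had the same window. Over the whole coding sequence, the 10 pairs of members from the same class were 48.2% to 68.1% identical (median 58.2%) and the 26 pairs from different classes 38.4% to 55.7% (median 47.5%). These are shares of all aligned columns, gaps included, so pairs of unlike length score low. Coding length was 954 bases in *Dusp2*, 1989 in *Dusp8* and 1980 in *Dusp16*, and the classes were not compared apart from length. The closest pair of each class was *Dusp1* with *Dusp4* (68.1%), *Dusp6* with *Dusp7* (67.1%) and *Dusp8* with *Dusp16* (59.8%).

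Total counts per sample ranged from 24863611 to 31713704, and no member had fewer than 300 counts in any sample. Levels are given as CPM (counts scaled to library size by the TMM method) and differences as log2 fold changes of MCT2 KO over MCT2 CO from edgeR, with the standard error (SE) and the adjusted p of its quasi-likelihood test over the 13485 genes kept. The targeted gene *Slc16a7* measured 16.0, 11.0 and 11.2 CPM among the MCT2 CO samples and 8.22, 4.97 and 5.34 among the MCT2 KO samples (replicates 1, 2 and 3, as in all values below), a log2 fold change of -1.05 (SE 0.24, adjusted p = 0.370). DESeq2, run on every gene that had a count, gave -1.04 for *Slc16a7* (adjusted p = 0.00908). The 10 macrophage markers were all detected, with sums of 4662 to 6207 CPM in MCT2 CO and 4822 to 8586 in MCT2 KO, whereas *Itgam*, which encodes CD11b, had 1 count over the 6 samples and could not serve as a check of the selection. MCT2 CO replicate 3 and MCT2 KO replicate 2 stood farthest from their group mates: the chi-square per gene between replicates was 15.7 for MCT2 CO replicates 1 and 2 but 27.9 and 43.1 with replicate 3, and 25.3 for MCT2 KO replicates 1 and 3 but 41.6 and 79.2 with replicate 2. Where leaving out either library moved the value of a member or of its class by over 1.5 times, that value is given as well.

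All 9 members passed the filter on low counts, and none met the thresholds set for a call (adjusted p no higher than 0.05, and a log2 fold change of 0.58 or more in either direction), which 0% of all genes met. At an unadjusted p under 0.05 there was 1 member, *Dusp8*, where 9.37% of all genes passed in either direction and 5.6% passed with a lower value in MCT2 KO. The groups did not overlap for 2 members, *Dusp8* and *Dusp16*, both lower in MCT2 KO, where 15.8% of all genes did not overlap in either direction and 8.77% were lower in every MCT2 KO sample. The log2 fold change was negative for 4 members and positive for 5, where 49.9% of all genes were negative, and the median was 0.0052 over the members and 0.00037 over all genes. The median of the members was 0.069 without MCT2 KO replicate 2 and 0.011 without MCT2 CO replicate 3. DESeq2, run on every gene that had a count, gave an adjusted p to 14202 genes. Of these, 0.584% and no member met the same thresholds. At its adjusted p alone it passed 0.775% of the 14202 genes, *Dusp8* among them. The adjusted p of the 9 members ran from 0.370 to 0.997, and their standard errors from 0.087 to 0.24.

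**Figure D1:**
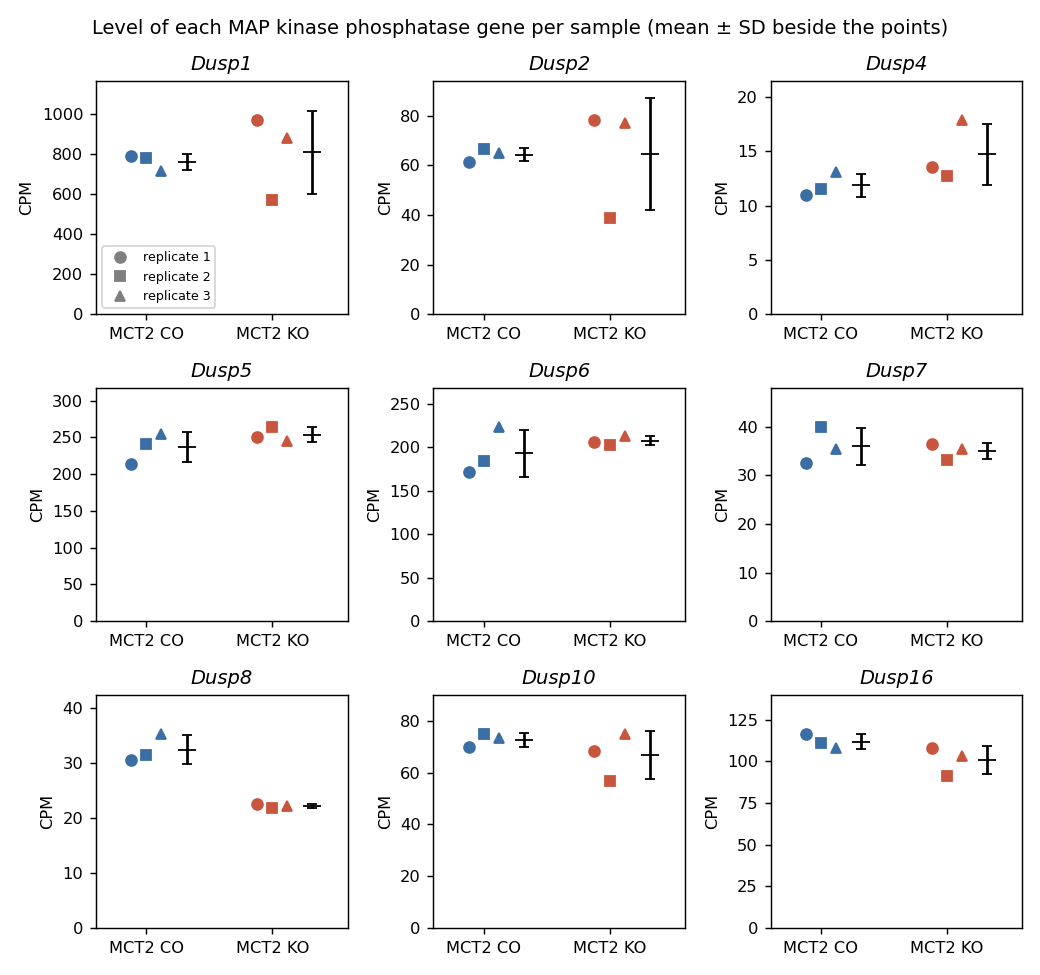
CPM of each member in the 3 MCT2 CO and 3 MCT2 KO samples, one panel per gene, with the mean and SD beside the points. *Dusp1* and *Dusp2* are spread widely among the MCT2 KO samples, and *Dusp8* is the member whose groups lie clearly apart, at 30.5 to 35.4 CPM against 21.8 to 22.5.

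The nuclear inducible enzymes held the most abundant member. *Dusp1* (ENSMUSG00000024190), an immediate early gene whose product acts on p38, JNK and ERK, is at chr17:26505590-26562128 (GRCm38, minus strand; the other positions are of the same build). Its level was 787, 779 and 714 CPM in MCT2 CO and 969, 571 and 880 in MCT2 KO. The MCT2 KO samples lay on both sides of the MCT2 CO samples, with replicate 2 below and replicates 1 and 3 above all of them. The means were 760 ± 40.2 and 806 ± 209 (SD, n = 3 each) and the log2 fold change was 0.09 (SE 0.19, adjusted p = 0.908). Without MCT2 KO replicate 2 it was 0.28 (adjusted p = 0.407), without MCT2 CO replicate 3 it was 0.042, and without both that library and MCT2 CO replicate 3 it was 0.24 (adjusted p = 0.546).

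*Dusp2* (ENSMUSG00000027368; chr2:127336159-127338376, plus strand), known as PAC-1 and enriched in activated immune cells, had 61.5, 66.5 and 64.8 CPM in MCT2 CO and 78.3, 38.6 and 76.9 in MCT2 KO. Its samples were placed as those of *Dusp1* were, with MCT2 KO replicate 2 lowest and the other MCT2 KO samples highest. The means of 64.3 ± 2.55 and 64.6 ± 22.5 (SD, n = 3 each) gave a log2 fold change of 0.0052 (SE 0.24, adjusted p = 0.997), which was 0.27 without MCT2 KO replicate 2 and 0.011 without MCT2 CO replicate 3. The ratio of *Dusp1* to *Dusp2* CPM was 12.8, 11.7 and 11.0 in MCT2 CO and 12.4, 14.8 and 11.4 in MCT2 KO. Several marker sums were also lowest in MCT2 KO replicate 2, but not those of macrophages (4822 CPM there, 4662 in MCT2 CO replicate 3) or monocytes (321 there, 284 in MCT2 CO replicate 1). Nor were the fibroblast, epithelial tumor, and mast cell or basophil sums lowest in it. The 8 B cell markers summed to 84.6, 94.6 and 96.6 CPM in MCT2 CO and 106, 27.7 and 116 in MCT2 KO, and the 7 T cell markers to 41.2, 62.1 and 43.2 and to 56.1, 13.0 and 84.9. Most of the B cell sum was *Ighm* (62.5, 73.7 and 72.7 CPM in MCT2 CO and 81.7, 19.5 and 95.0 in MCT2 KO). *Cd79a* and *Ms4a1* were lower in every MCT2 KO sample than in any MCT2 CO sample, as were 8.77% of all genes. The other B cell markers that passed the filter, *Pax5*, *Cd22*, *Cd79b* and *Ighm*, overlapped. The sums of neutrophil (60.9 CPM), dendritic cell (22.4) and endothelial markers (75.5) were lowest in MCT2 KO replicate 2 too. The NK cell sum of 27.1 was not, at 22.2 to 37.1 in MCT2 CO and 24.8 and 52.1 in the other MCT2 KO samples. Most of the neutrophil sum was *Csf3r* (93.0, 94.3 and 70.9 CPM in MCT2 CO and 120, 41.1 and 118 in MCT2 KO). Of the 8 neutrophil markers, 6 passed the filter on low counts. Among these, *S100a8*, *S100a9*, *Ngp* and *Retnlg* were higher in every MCT2 KO sample than in any MCT2 CO sample, while *Cxcr2* and *Csf3r* overlapped. Over all genes 15.8% did not overlap in either direction. *Ngp* (0.13, 0.19 and 0.38 CPM in MCT2 CO) and *Retnlg* (0.33, 0.31 and 0.49) had few reads there and passed the filter through their MCT2 KO values. The endothelial markers *Pecam1* and *Kdr* were lowest in MCT2 KO replicate 2, *Cdh5* was highest there (24.7 CPM) and *Tek* was neither. None of the markers in these lists was at 0 in all samples. Their part in the *Dusp1* and *Dusp2* values was not tested, and in RNA from a mixed preparation fewer cells of a type and less RNA per cell cannot be told apart.

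*Dusp4* (ENSMUSG00000031530; chr8:34807297-34819894, plus strand), a nuclear phosphatase of ERK and JNK, had 10.9, 11.5 and 13.1 CPM in MCT2 CO and 13.5, 12.7 and 17.9 in MCT2 KO. The groups overlapped in one sample of each, and the log2 fold change of 0.31 (SE 0.16, adjusted p = 0.577) ranged from 0.15 to 0.41 with each sample left out in turn. *Dusp5* (ENSMUSG00000034765; chr19:53529109-53542431, plus strand), which binds ERK in the nucleus, had 214, 241 and 255 CPM in MCT2 CO and 251, 264 and 245 in MCT2 KO. The samples of both groups were interleaved, with a log2 fold change of 0.10 (SE 0.093, adjusted p = 0.768), which was 0.16 without MCT2 CO replicate 3. The median of the 4 nuclear enzymes was 0.092, and 0.28 without MCT2 KO replicate 2.

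Of the cytoplasmic ERK phosphatases, *Dusp6* (ENSMUSG00000019960; chr10:99263231-99267489, plus strand), a transcriptional readout of ERK activity in many tissues, had 171, 184 and 224 CPM in MCT2 CO and 206, 203 and 213 in MCT2 KO. All MCT2 KO samples lay inside the range of the MCT2 CO samples, and the log2 fold change was 0.10 (SE 0.11, adjusted p = 0.791). It was 0.22 without MCT2 CO replicate 3 and 0.026 without MCT2 CO replicate 1. *Dusp7* (ENSMUSG00000053716; chr9:106368632-106375724, plus strand), a close relative of *Dusp6*, had 32.6, 40.0 and 35.4 CPM in MCT2 CO and 36.4, 33.2 and 35.5 in MCT2 KO. Again the MCT2 KO samples lay inside the MCT2 CO range, at a log2 fold change of -0.04 (SE 0.10, adjusted p = 0.924), and at -0.00048 without MCT2 KO replicate 2. *Dusp9*, the remaining enzyme of this class and not among the 9 members, was at 7.44 ± 1.77 CPM in the MCT2 CO and 7.68 ± 1.83 in the MCT2 KO samples (SD, n = 3 each). With *Dusp9* included, the median log2 fold change of the class was 0.051. It was 0.22 without MCT2 CO replicate 3 and -0.00048 without MCT2 KO replicate 2.

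The JNK and p38 phosphatases were the class in which 3 of 3 members had a negative log2 fold change, with a median of -0.15, which was -0.08 without MCT2 KO replicate 2. Their summed level was 217, 217 and 217 CPM in MCT2 CO and 199, 170 and 201 in MCT2 KO. *Dusp8* (ENSMUSG00000037887; chr7:142079490-142095843, minus strand), best known from brain and heart, had 914, 818 and 940 counts in MCT2 CO and 536, 711 and 554 in MCT2 KO. This came to 30.5, 31.5 and 35.4 CPM in MCT2 CO and 22.5, 21.8 and 22.3 in MCT2 KO, and the highest MCT2 KO sample stayed under the lowest MCT2 CO sample. The means were 32.4 ± 2.58 and 22.2 ± 0.330 CPM (SD, n = 3 each), a mean 31.6% lower after tamoxifen. The counting error of a single MCT2 KO sample, 3.75% to 4.32% by the square root of its counts, was above the 1.49% by which these samples varied (coefficient of variation). Its log2 fold change was -0.55 (SE 0.091), the unadjusted p 0.000324 was rank 8 among the 13485 genes, and the adjusted p was 0.370. DESeq2 gave -0.54 (adjusted p = 0.00501), which did not reach the fold threshold. With each sample left out in turn the edgeR value stayed between -0.59 and -0.48 and the adjusted p between 0.273 and 0.765, and without both MCT2 CO replicate 3 and MCT2 KO replicate 2 it was -0.47 (adjusted p = 0.257).

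*Dusp16* (ENSMUSG00000030203; chr6:134715468-134792625, minus strand), a JNK phosphatase and the nearest relative of *Dusp8* by coding sequence, had 116.8, 110.9 and 108.1 CPM in MCT2 CO and 107.9, 91.6 and 103.5 in MCT2 KO. The groups did not overlap but were set apart by a narrow margin, and the log2 fold change was -0.15 (SE 0.087, adjusted p = 0.631), and -0.08 without MCT2 KO replicate 2. *Dusp10* (ENSMUSG00000039384; chr1:184013302-184075636, plus strand), a phosphatase of JNK and p38 in innate immune cells, had 69.8, 75.0 and 73.5 CPM in MCT2 CO and 68.5, 56.7 and 75.1 in MCT2 KO. Its groups overlapped, at a log2 fold change of -0.12 (SE 0.11, adjusted p = 0.755), which was -0.018 without MCT2 KO replicate 2. The summed level of the 6 fibroblast markers, none of them at 0 in all samples, was also lower in every MCT2 KO sample, at 2015, 2202 and 3295 CPM in MCT2 CO and 1790, 1785 and 1680 in MCT2 KO. Most of it was *Col3a1* (1187, 1252 and 2028 CPM in MCT2 CO and 1017, 805 and 821 in MCT2 KO). The groups did not overlap for 3 of the 6, *Col3a1*, *Dcn* and *Lum*, while *Col1a1*, *Col1a2* and *Pdgfra* overlapped. Over all genes 8.77% were lower in every MCT2 KO sample. The part of the fibroblast markers in the *Dusp8* and *Dusp16* values was not tested.

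**Figure D2:**
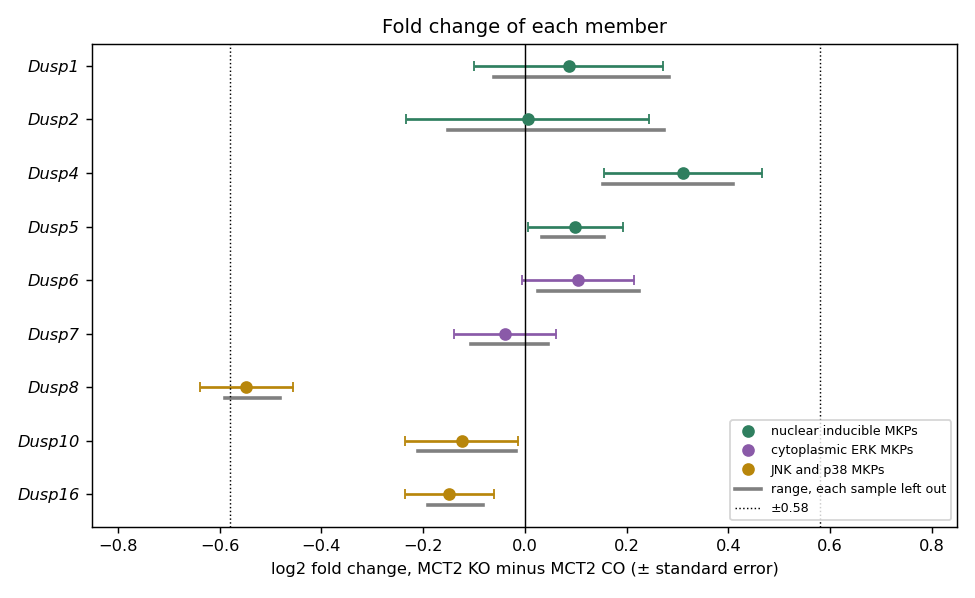
Log2 fold change of MCT2 KO over MCT2 CO for each member (points, with the standard error from edgeR), colored by class, with grey bars for the range when each sample is left out and dotted lines at 0.58 in either direction. *Dusp8* at -0.55 lies farthest from 0, and the other 8 lie between -0.15 and 0.31.

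Compared per kilobase of exon, the members formed a steep order. *Dusp1* averaged 237 CPM per kb over the 6 samples, *Dusp5* 99.1, *Dusp6* 64.0, *Dusp2* 32.2, *Dusp10* 22.9, *Dusp16* 13.7, *Dusp7* 10.6, *Dusp8* 5.61 and *Dusp4* 4.84. *Dusp1* alone made up 48.0% of the family's summed level, *Dusp5* 20.4% and *Dusp6* 13.2%. Ranges overlapped between the neighbours *Dusp2* and *Dusp10*, *Dusp16* and *Dusp7*, and *Dusp8* and *Dusp4*. In the first and second of these pairs the first gene was still the higher in 6 of 6 samples. *Dusp8* was above *Dusp4* in 3 MCT2 CO samples and in 0 MCT2 KO samples: *Dusp8* had 6.26, 6.46 and 7.26 CPM per kb in MCT2 CO and 4.61, 4.48 and 4.57 in MCT2 KO, and *Dusp4* 3.99, 4.21 and 4.77 and 4.94, 4.63 and 6.52. The order depends on the length used, since by the whole gene span, the length in the deposited table, *Dusp6* came first and *Dusp1* was at place 4.

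**Figure D3:**
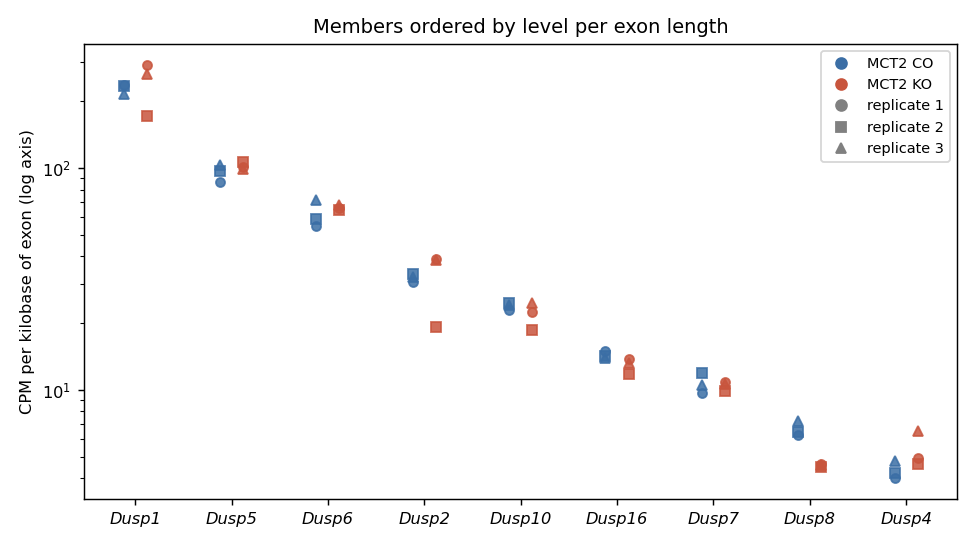
CPM per kb of exon for each member in all 6 samples, on a log axis, ordered by the mean. *Dusp1* is highest at 172 to 293, and *Dusp8* and *Dusp4* are lowest and change places between the groups.

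Genes whose profile over the 6 samples was most like that of *Dusp1* were sought by the root mean square difference of centred log2 CPM. The nearest were *Zc3h12d* (0.028), *Extl3* (0.037) and *Cd52* (0.039), and the nearest member was *Dusp2* at place 451 (0.14). For *Dusp8*, a target chosen after its values were seen, they were *Efna2* (0.061), *Arl5b* (0.065) and *Dnaja1* (0.065), and the nearest member was *Dusp16* at place 1583 (0.23). *Dnaja1*, a heat shock cochaperone, had 179, 176 and 210 CPM in MCT2 CO and 122, 132 and 138 in MCT2 KO.

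**Figure D4:**
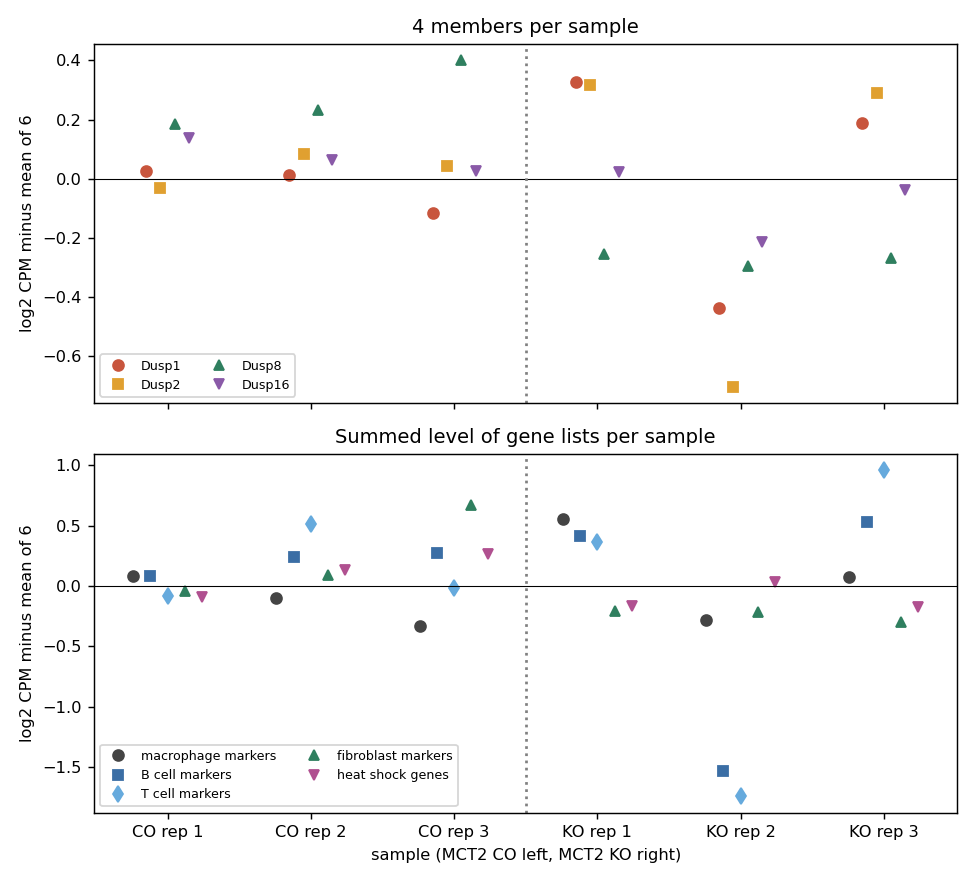
Log2 CPM minus the mean of the 6 samples for 4 members (top) and for the summed level of marker lists and heat shock genes (bottom). *Dusp1* and *Dusp2* are lowest in MCT2 KO replicate 2, as are the B and T cell marker sums, and *Dusp8* and the fibroblast marker sum are lower in all MCT2 KO samples.

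Upstream sequence is shown for *Dusp1*, the most abundant member, for *Dusp5*, the next, and for *Dusp8*, the member that differed most, because the members are known as transcriptionally induced genes. RefSeq promoters of GRCm38.p6, from 250 bases before to 50 after the start site, were on hand for 8 members. Those printed are chr17:26508423-26508722 (minus strand), chr19:53528895-53529194 (plus strand) and chr7:142095235-142095534 (minus strand), with matches to the motifs named below in capitals.
Dusp1: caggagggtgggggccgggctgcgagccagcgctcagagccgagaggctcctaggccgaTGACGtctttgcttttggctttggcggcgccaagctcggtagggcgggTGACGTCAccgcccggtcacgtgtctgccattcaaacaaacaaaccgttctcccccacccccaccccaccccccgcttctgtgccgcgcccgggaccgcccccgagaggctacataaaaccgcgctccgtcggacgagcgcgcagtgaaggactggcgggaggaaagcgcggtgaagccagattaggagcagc
Dusp5: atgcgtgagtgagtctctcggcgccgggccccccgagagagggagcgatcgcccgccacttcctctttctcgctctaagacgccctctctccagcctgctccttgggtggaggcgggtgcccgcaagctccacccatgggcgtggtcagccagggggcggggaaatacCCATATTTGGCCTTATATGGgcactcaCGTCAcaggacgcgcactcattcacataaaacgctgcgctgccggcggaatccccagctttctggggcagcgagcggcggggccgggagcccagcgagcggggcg
Dusp8: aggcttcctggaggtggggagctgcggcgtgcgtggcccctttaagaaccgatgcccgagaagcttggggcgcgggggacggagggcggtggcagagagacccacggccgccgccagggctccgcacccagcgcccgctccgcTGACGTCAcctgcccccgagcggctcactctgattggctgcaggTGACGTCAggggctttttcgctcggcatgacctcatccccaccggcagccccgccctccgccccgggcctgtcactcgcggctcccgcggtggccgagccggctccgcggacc
The full cyclic AMP response element TGACGTCA, searched on both strands, was in 2 of the 8 promoters, once in *Dusp1* (first base at -143) and at -107 and -63 in *Dusp8*, and in 1.79% of 32851 promoters. Its first 5 letters, TGACG, which every full element also holds, were in 5 of 8 (*Dusp1*, *Dusp2*, *Dusp5*, *Dusp8*, *Dusp16*) and in 20.8% of all. The CArG box, bound by serum response factor, was in *Dusp5* alone, at -82 and -72, and in 1.63% of all. The AP-1 letters TGANTCA were in 0 of 8 and 7.81% of all, and TATAAA, read on the sense strand, in 0 of 8 and 8.32%. GC content was 67.0% in *Dusp1* and 73.3% in *Dusp8*, and ran from 57.3% (*Dusp6*) to 78.7% (*Dusp7*) over the 8, with a median of 52.7% over all promoters. These matches describe letters in the window and were not related to the expression values.

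The rest of the MAP kinase pathway was read from lists of genes, none of which held a gene called by edgeR. Of 13 MAP kinases tested, 6 were lower and 7 higher in MCT2 KO (median log2 fold change 0.030) and 0 had an unadjusted p under 0.05. *Mapk10* at -0.53 (SE 0.27, adjusted p = 0.582) and *Mapk4* at 0.31 (SE 0.39, adjusted p = 0.830) lay farthest from 0, at low MCT2 CO means of 2.64 and 1.21 CPM. *Mapk3*, which encodes ERK1, came next at 0.21 (SE 0.094, adjusted p = 0.539). Of 19 upstream kinases 11 were lower (median -0.035), and *Map2k3*, an activator of p38, was the 1 with an unadjusted p under 0.05, at -0.26 (SE 0.095, adjusted p = 0.488). Of 17 MAP kinase substrates and effectors 7 were lower (median 0.0082), and of 13 other dual-specificity phosphatases 4 were lower (median 0.051), with 0 at an unadjusted p under 0.05 in each list. Of 17 other feedback inhibitors 9 were lower (median -0.0012). *Spry1*, an inhibitor of receptor tyrosine kinase signaling, lay farthest from 0, at -0.80 (SE 0.41, adjusted p = 0.582), with 16.1 CPM in MCT2 CO replicate 3 and 4.49 to 6.63 in the other samples. The Ras and ERK inhibitor *Spry4* had 49.7, 49.6 and 69.8 CPM in MCT2 CO and 40.3, 35.4 and 41.9 in MCT2 KO, with a log2 fold change of -0.52 (SE 0.15, adjusted p = 0.426). *Ptpn7*, a tyrosine phosphatase of ERK and p38 in blood cells, was at 0.46 (SE 0.18, adjusted p = 0.509), with overlapping groups.

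The 25 early response transcription factors and related genes, many of them induced through the same kinases as the nuclear phosphatases, were lower in MCT2 KO for 24 genes, with a median of -0.40 and an unadjusted p under 0.05 for 9. Over all genes 49.9% were lower and 9.37% had an edgeR unadjusted p under 0.05, 5.6% with a lower value in MCT2 KO. *Egr4* had 43.5, 44.5 and 55.9 CPM in MCT2 CO and 22.0, 18.2 and 14.1 in MCT2 KO, a log2 fold change of -1.41 (SE 0.17, adjusted p = 0.267). *Ier5l* was at -1.29 (SE 0.19), *Egr3* at -0.94 (SE 0.23) and *Jund* at -0.88 (SE 0.28). DESeq2 called 3 genes of this list, and 0.584% of all genes to which it gave an adjusted p. Of the 11 heat shock genes, 11 were lower (median -0.32) and 6 had an unadjusted p under 0.05, among them *Hspa1b* at -1.60 (SE 0.27, adjusted p = 0.370), a near-identical copy of *Hspa1a*, so that reads may be split between them. The list medians differed from that of all genes by these amounts, which were not tested, and the lists were chosen with earlier results of these samples known. The early response median was -0.30 without MCT2 CO replicate 3, -0.28 without MCT2 KO replicate 2 and -0.13 without both.

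**Figure D5:**
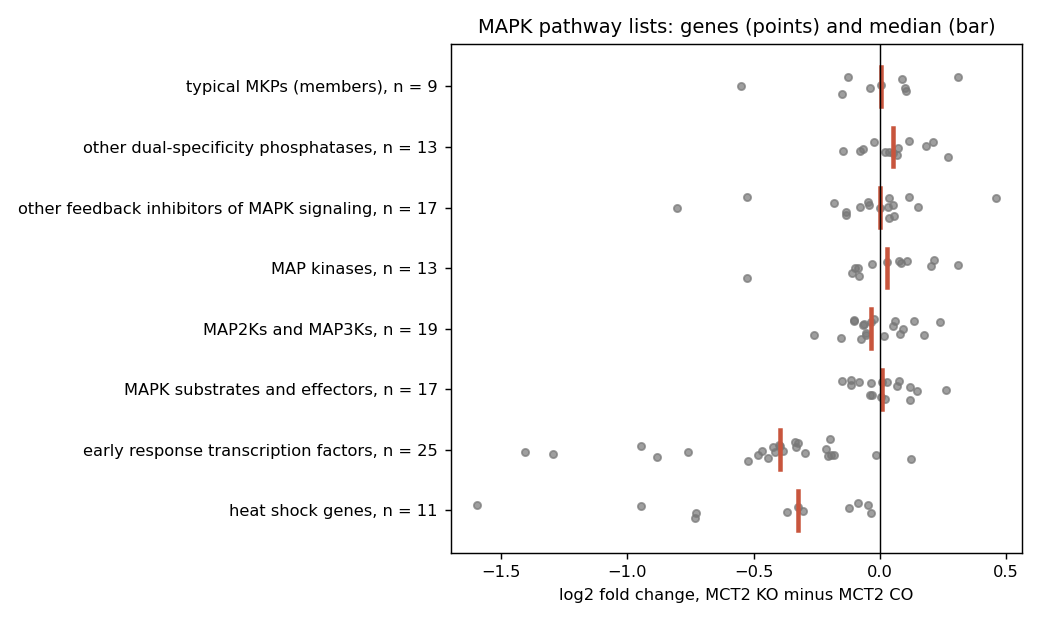
Log2 fold change of MCT2 KO over MCT2 CO for each tested gene of the pathway lists, with the median of each list. The 9 members centre near 0 at 0.0052, and the early response and heat shock genes have medians of -0.40 and -0.32.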

How the data were processed

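The authors made stranded libraries of poly-A RNA and deposited raw counts per gene, without normalization or pooling. According to the submitters' processing notes, FastQC 0.12.0, MultiQC 1.28, STAR 2.7.11b, featureCounts 2.1.1 and DESeq2 1.18.1 were used with GRCm38. The annotation, feature type and strand setting of the counting are not given in the sources used here. The lengths in the table are whole gene spans, so intronic reads may be counted. Its positions matched GENCODE M21 on GRCm38 for 564 of 25594 shared genes, so its build is uncertain and gene positions were looked up in GENCODE M21 by Ensembl identifier.

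Counts were analysed with edgeR 4.0.16 (filterByExpr, minimum count 10 and minimum total 15; TMM; quasi-likelihood test; Benjamini-Hochberg adjustment over 13485 genes) in R 4.3.3, with Python 3.11.15. A gene was called where its adjusted p was no higher than 0.05 and its log2 fold change was 0.58 or more in size. The alternatives were DESeq2 1.42.0, limma 3.58.1 (voom), other normalizations and filters, a replicate block and each sample left out. The fits were tested on simulated data. Total counts were 24863611 to 31713704. The members and gene lists were chosen with earlier results of these data known. By rule, the genes named are the members, *Slc16a7*, up to 4 genes per pathway list with the largest absolute log2 fold change, and the 3 genes nearest to *Dusp1* in profile. *Itgam*, *Dusp9*, the fibroblast, B cell, neutrophil and endothelial markers and the 3 genes nearest to *Dusp8* were named outside it, after their values were seen.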

Additional observations from a re-analysis of the deposited data

How the results depend on the processing

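No member was called in any of the 15 alternatives, and *Dusp8* was lower in MCT2 KO in all of them. Over all genes, the 0 calls of edgeR (1264 genes at an unadjusted p under 0.05) became 79 with DESeq2 on the same genes, 83 with DESeq2 on every gene that had a count, 2 without a filter and 0 to 2 with each sample left out (2 without MCT2 KO replicate 2). Without both MCT2 CO replicate 3 and MCT2 KO replicate 2, an alternative chosen after seeing the data, there were 10. The cause was not tested. Ordered by gene span, 1 of 9 members kept its place. The sign of *Dusp2*, whose value is near 0, turned with limma-voom (-0.072), upper-quartile normalization (-0.0010) and the replicate block (-0.058), and ran from -0.15 to 0.27 with each sample left out. *Dusp1* ran from -0.060 to 0.28 (negative without MCT2 KO replicate 1) and *Dusp7* from -0.11 to 0.046 (positive without MCT2 CO replicate 2). The labels do not say whether same-numbered samples were paired. Their deviations from the group means correlated at 0.22, -0.25 and -0.16 over 13485 genes, which with 3 samples per group cannot settle it. The replicate block left 0 genes called and 1048 at an unadjusted p under 0.05. The counting error was largest for the members with the fewest counts, *Dusp4* (4.74% to 5.77% per sample) and *Dusp8* (3.26% to 4.32%). For *Dusp4* it was below the 18.9% by which the MCT2 KO samples varied.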
